A study of Oryza sativa with 2 samples.

Results

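Dehydrins are hydrophilic proteins of the late embryogenesis abundant (LEA) class. They accumulate when plant cells lose water, as in maturing seeds and in vegetative tissue under drought, cold or salinity. Many dehydrin genes of rice carry the name RAB, for responsive to abscisic acid (ABA), the hormone that signals water deficit. In the ABA pathway, clade A protein phosphatases (PP2C) restrain SnRK2 kinases, the hormone relieves that restraint, and the kinases then activate bZIP transcription factors that bind ABA-responsive elements (ABRE) in promoters such as those of the RAB16 genes.

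The dehydrin genes described here are 6 of the 55986 gene models in the deposited count table, chosen by their locus identifiers. They are RAB16A, RAB16B, RAB16C and RAB16D on chromosome 11, LIP9 (also called Dhn1) on chromosome 2 and a model assigned to RAB25 on chromosome 1. Messenger RNA was sequenced from 14-day seedlings of the rice cultivar CARI Dhan 7, which had germinated either in distilled water (control, 0 dS/m) or in a solution of 4 salts, namely NaCl with sulfates and a chloride of other cations, with a conductivity of 6 dS/m (salinity). There was 1 library for each group. Every difference below therefore compares 2 libraries and lacks a replicate check, and intervals cover counting error only. In whole seedlings, a change in the share of a cell type and a change in RNA per cell cannot be told apart.

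Sequencing depth was 45359020 counts for the control and 15031328 for the salinity library. Every salinity value above 0 was even, as were 61.73% of the control values above 0, and 70.56% of the salinity values were multiples of 4. Intervals and calls therefore use an approximate read-pair scale, inferred from the values, on which a pair stands for 2 counts in the control and 4 under salinity. On it the libraries hold 22.68 and 3.758 pairs in units of 1e6. Levels are counts per 1e6 scaled counts (CPM). A gene counts as higher or lower if its entire 95% interval for the salinity-to-control ratio clears 2-fold, and as within the range otherwise. This was assessed for the 26638 gene models whose counts in both libraries sum to at least 10.

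All 6 dehydrin genes were measured, and 5 of them were higher in the salinity library, against 7.97% of all gene models called higher and 5.17% called lower. With intervals from the counts as deposited, the same number of dehydrin genes was higher, against 10.6% of all gene models called higher and 10.3% called lower. The 5 were the RAB16 genes and LIP9, while the RAB25 model was within the range. Summed over the 6 genes, the level was 580.6 (control) and 8808 CPM (salinity), 15.17-fold higher (interval 14.87 to 15.48). The genes took 0.0634% of the control counts (Clopper-Pearson interval 0.06237 to 0.06445) and 0.8066% of the salinity counts (interval 0.7976 to 0.8157). The median log2 ratio of the 6 genes was 2.91, beside -0.08 for all gene models measured.

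**Figure D1:**
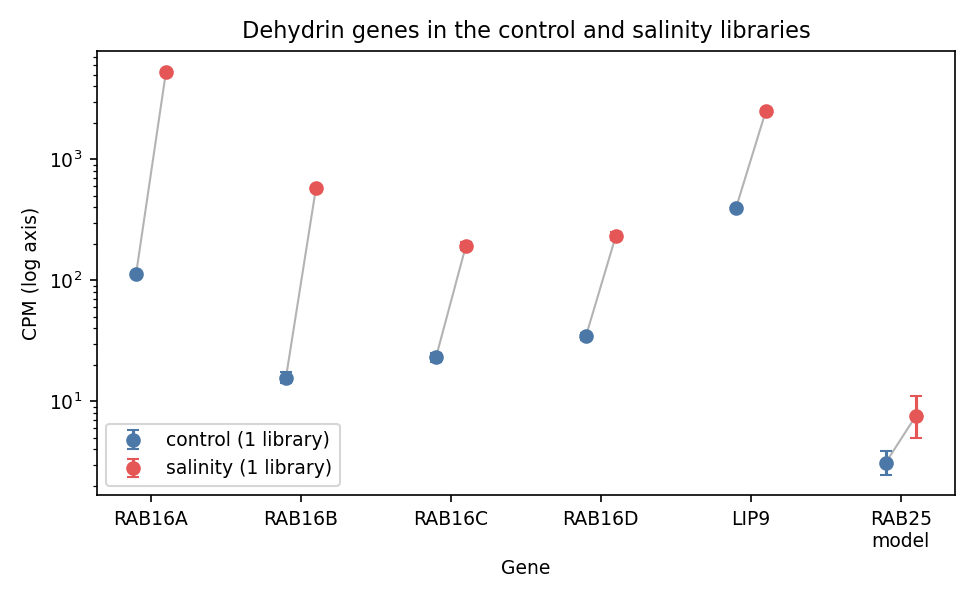
CPM of each dehydrin gene (log axis) in the control library (blue) and the salinity library (red), with exact 95% Poisson intervals on the read-pair scale and a grey line joining the 2 values of a gene. Each salinity point lies above its control point, and the intervals are widest for the RAB25 model, at 3.11 and 7.56 CPM, which was not called.

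RAB16A (LOC_Os11g26790, chromosome 11, 15342564 to 15343857, minus strand, 2 exons), listed in the RefSeq name table as RAB21, is a long-studied ABA-responsive dehydrin gene of rice. It had 5554 control and 72898 salinity counts, which is 112.1 CPM (Poisson interval 108.0 to 116.4) and 5296 CPM (interval 5219 to 5373). The salinity level was 47.23-fold higher, a log2 ratio of 5.56 (interval 5.50 to 5.62). Ranked by CPM per kilobase of exon, 1023 gene models stood above RAB16A in the control and 8 did so under salinity. Of the measured gene models, 189 had a log2 ratio above that of RAB16A, and 1 of these exceeded 1000 CPM in the salinity library. That model was LEA3-1 (LOC_Os05g46480), a gene for another LEA protein, at 61.82 (control) and 6647 CPM (salinity).

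RAB16B (LOC_Os11g26780, chromosome 11, 15336034 to 15337163, minus strand, 2 exons) was the lowest of the 4 RAB16 genes per kilobase in the control, with 778 counts or 15.71 CPM (interval 14.18 to 17.35). In the salinity library it had 7946 counts or 577.3 CPM (interval 552.1 to 603.2), which placed it second among the 4 per kilobase. The difference was 36.73-fold, a log2 ratio of 5.20 (interval 5.04 to 5.36).

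RAB16C (LOC_Os11g26760, chromosome 11, 15327768 to 15328657, minus strand, 2 exons) had 1140 control and 2656 salinity counts, or 23.02 and 193 CPM. Its salinity level was 8.381-fold higher, a log2 ratio of 3.07 (interval 2.90 to 3.23). RAB16D (LOC_Os11g26750, chromosome 11, 15320188 to 15321526, minus strand, 2 exons) had 1707 control and 3208 salinity counts, or 34.46 and 233.1 CPM. Its salinity level was 6.762-fold higher, a log2 ratio of 2.76 (interval 2.62 to 2.90). Both genes were thus higher, by less than RAB16A and RAB16B.

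LIP9 (LOC_Os02g44870, chromosome 2, 27165434 to 27166898, minus strand, 2 exons), named for its induction by low temperature, had the highest level per kilobase of the 6 genes in the control. It stood at 19426 counts or 392.2 CPM (interval 384.4 to 400.1) in the control and 34436 counts or 2502 CPM (interval 2449 to 2555) in the salinity library. The ratio was 6.379-fold, a log2 ratio of 2.67 (interval 2.63 to 2.72).

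The model assigned to RAB25 (LOC_Os01g50700, chromosome 1, 29119761 to 29124636, plus strand) had 154 control and 104 salinity counts, or 3.11 and 7.56 CPM. Its log2 ratio was 1.28, and the interval of 0.58 to 1.94 reached below 2-fold, so it was not called. This model has 11 exon pieces over 4876 bases, whereas the entry rab25 in the name table spans 1092 bases. The gene listed just before rab25, at a gap of 242 bases, spans 3928 bases, and both together span 5262 bases. The deposited model is thus close in length to the pair rather than to the dehydrin gene, and how its counts divide between them was not tested. Without this model, 5 of 5 dehydrin genes were higher and the summed level was 15.24-fold higher.

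**Figure D2:**
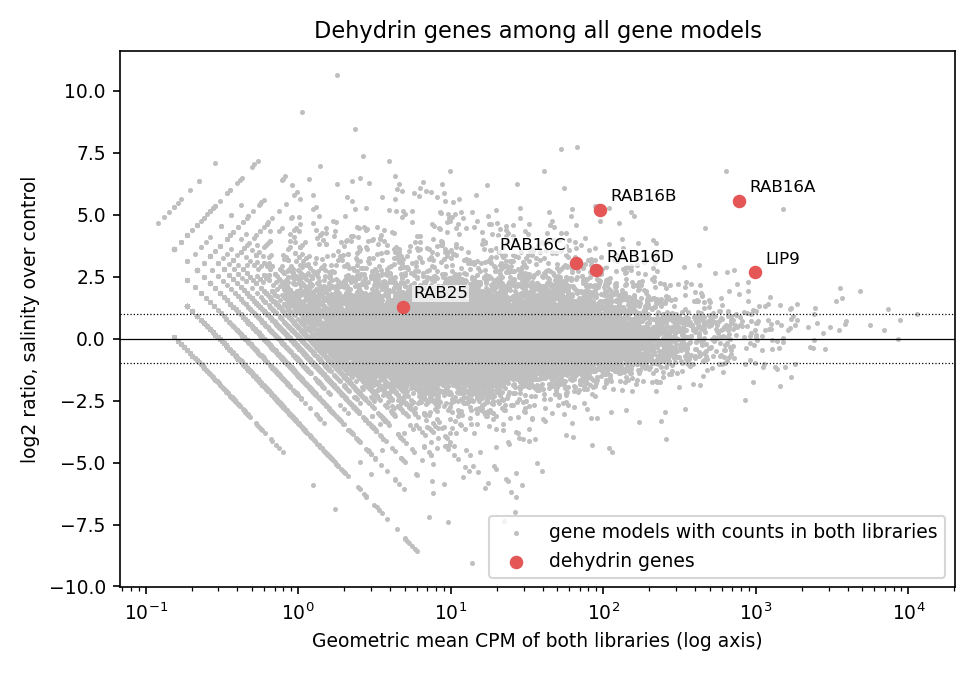
Log2 ratio of the salinity over the control library against the geometric mean CPM of both libraries (log axis) for the gene models with counts in both (grey) and the dehydrin genes (red), with dotted lines at 2-fold. RAB16A, at a log2 ratio of 5.56, and LIP9, at 2.67, stand among the abundant transcripts above most of the grey points. By log2 ratio alone they ranked 190 and 991 among the 26638 gene models measured. The RAB25 model, at 1.28, lies within the grey cloud.

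The size of the increase differed among the dehydrin genes. The difference between 2 genes in their log2 ratio does not depend on how the libraries are scaled, and in 14 of 15 pairs its 95% interval (normal approximation on read pairs) left out 0. The log2 ratio of RAB16A exceeded that of RAB16B by 0.36 (interval 0.20 to 0.53), that of RAB16C by 2.49 (interval 2.32 to 2.67) and that of RAB16D by 2.81 (interval 2.65 to 2.96). RAB16C exceeded RAB16D by 0.31 (interval 0.10 to 0.52). RAB16D and LIP9, neighbours in this order, differed by 0.08 with an interval of -0.06 to 0.23, so they were not told apart at this depth. In sum, RAB16A and RAB16B were 45.94-fold higher (interval 44.25 to 47.71), and RAB16C and RAB16D 7.411-fold higher (interval 6.886 to 7.978). RAB16A gave 5554 of the 6332 control and 72898 of the 80844 salinity counts in the first sum. RAB16B alone was 36.73-fold higher (interval 32.95 to 41.08), below the interval of that sum. Both pairs were chosen from these ratios.

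With these unequal increases, the make-up of the summed level of the 6 genes differed between the libraries. WSI724 and LOC_Os11g26570, listed by hand as dehydrins and described below, lie outside this sum, so the shares are not of all dehydrin RNA. Levels of different genes are compared here in CPM per kilobase of exon. LIP9 made up 62.09% of the summed control level of the 6 genes and 25.13% of the salinity level, and RAB16A made up 20.17% and 60.43%. RAB16A stood at 0.3248 times the level of LIP9 in the control (interval 0.3112 to 0.3388) and at 2.405 times in the salinity library (interval 2.344 to 2.467), so the order of these 2 genes was reversed.

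Within the RAB16 genes the order also changed. In the control the levels per kilobase ran from RAB16A at 92.9 through RAB16D at 36.2 and RAB16C at 28.95 to RAB16B at 15.18. In the salinity library they ran from RAB16A at 4388 through RAB16B at 557.7 to RAB16D at 244.8 and RAB16C at 242.7. RAB16B was at 0.4192 times the level of RAB16D in the control (interval 0.3709 to 0.4732) and at 2.278 times in the salinity library (interval 2.098 to 2.476). RAB16C and RAB16D did not differ beyond counting error in the salinity library, at a level ratio of 0.9914 (interval 0.8932 to 1.1), whereas in the control RAB16C was at 0.7997 times RAB16D (interval 0.718 to 0.8902). By level per kilobase among all measured gene models, LIP9 ranked 251 (control) and 31 (salinity), and RAB16B ranked 6864 and 128.

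**Figure D3:**
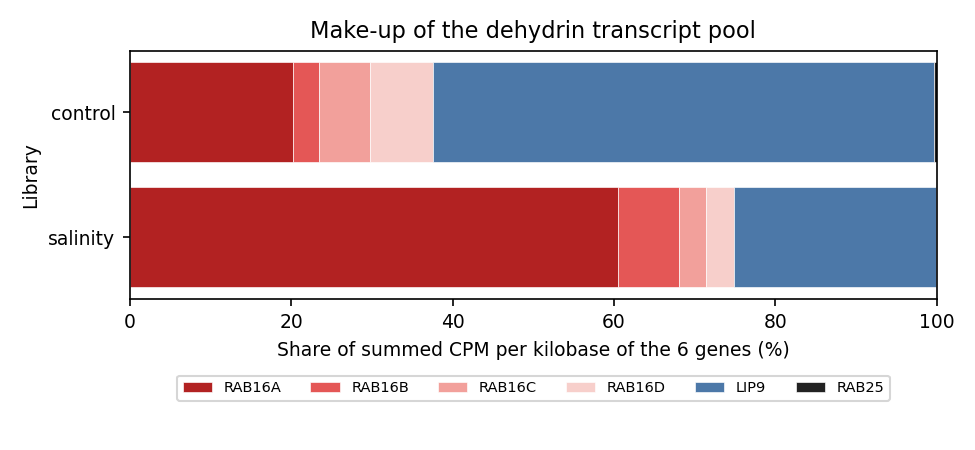
Share of each dehydrin gene in the summed CPM per kilobase of the 6 genes (%), as 1 stacked bar for each library. LIP9 (blue) takes 62.09% of the control bar and RAB16A (dark red) 60.43% of the salinity bar, and the RAB25 model is barely visible at 0.305% of the control bar.

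The 4 RAB16 genes lie on the same strand within 23.7 kb of chromosome 11 (15320188 to 15343857), in the order RAB16D, RAB16C, RAB16B and RAB16A along increasing coordinates. Gaps of 6241, 7376 and 5400 bases separate them. The log2 ratio was higher at each step in that order, from 2.76 through 3.07 and 5.20 to 5.56, across 4 genes in 1 pair of libraries. Summed over the 4 genes, the level was 185.3 (control) and 6299 CPM (salinity), 33.99-fold higher (interval 32.92 to 35.1). No exon bases of any of the 6 dehydrin models are shared with another model in the table. Reads from stretches that the RAB16 copies have in common may still have been split between them or lost. A sum over the 4 genes is less open to such a split than the value of each. Lost reads are missing from the sum as well.

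Most models right beside the RAB16 genes had no or few counts. The model between RAB16C and RAB16B, LOC_Os11g26770, had 0 control and 2 salinity counts. Of the 5 models before RAB16D, 4 had 0 counts in both libraries, and LOC_Os11g26720 had 7 control counts. Of the 5 models after RAB16A, 3 had 0 counts in both, LOC_Os11g26840 had 7 control counts, and LOC_Os11g26850 was expressed. That model, 99.76 kb from the start of RAB16D, was at 1397 (control) and 697.4 CPM (salinity), a log2 ratio of -1.002 (interval -1.06 to -0.94), within the range. Its point estimate lay just past 2-fold. Total-count scaling, which shifts ratios by -0.25, would carry its interval past 2-fold as well, so this call depends on the scaling. The other 9 flanking models and LOC_Os11g26770 fell under the count minimum, so their ratios were not measured.

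**Figure D4:**
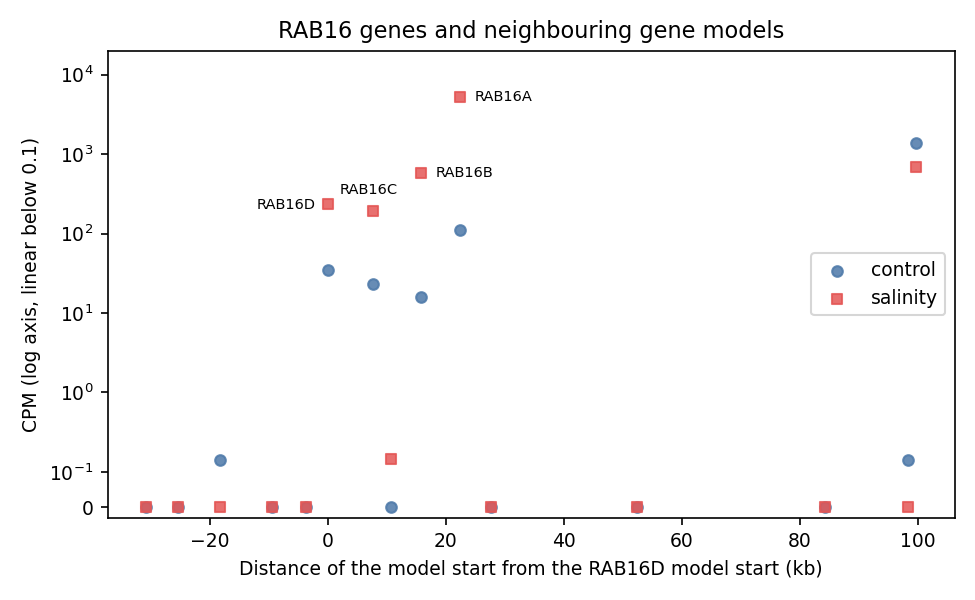
CPM (log axis, linear below 0.1) in the control (blue circles) and salinity (red squares) libraries for the RAB16 genes, the model between them and the 5 models on each side, against the distance of the model start from that of RAB16D (kb). The RAB16 genes stand between models at or near 0. The 1 other expressed model plotted, at 99.76 kb, stands at 1397 (control) and 697.4 CPM (salinity). It was within the range by its interval, with a point estimate just past 2-fold.

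Outside the 6 genes, other LEA genes went different ways. Of 6 listed, 3 passed as higher and 1 as lower. LEA3-1 had the highest log2 ratio of these, 6.75, and WSI18 was at 3.08. LOC_Os11g26570, listed by hand as a further dehydrin, starts 96.86 kb before RAB16D on chromosome 11. It was at 53.36 (control) and 836.2 CPM (salinity), a log2 ratio of 3.97 (interval 3.88 to 4.07). WSI724, likewise listed by hand as a dehydrin, stood above every RAB16 gene in the control, at 1532 CPM per kilobase against 92.9 for RAB16A. It had 1417 (control) and 1334 CPM (salinity), with a log2 ratio of -0.09 (interval -0.13 to -0.04). EMP1, a LEA gene of embryos, was lower, from 22.81 to 3.778 CPM, a call lost with an interval beyond 4-fold. The names or roles of LOC_Os11g26570, WSI724, WSI18, BZIP72, BZIP12, BZIP46 and ABI5 rest on the hand-written list alone.

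Genes that act upstream of dehydrin genes in the ABA pathway differed by class. All 9 listed clade A PP2C genes, whose products restrain the SnRK2 kinases, were higher, with a median log2 ratio of 3.44 and a range from 1.25 for PP2C53 to 5.34 for PP2C68. The PP2C53 call was lost with total-count and upper-quartile scaling, with the control thinned and with no count filter, which leaves 8 of 9. With an interval beyond 4-fold 7 of 9 were higher, without PP2C53 and PP2C08, against 792 of the 26638 gene models measured. PP2C30 was at 24.99 (control) and 638 CPM (salinity). Of 6 SnRK2 kinase genes, SAPK1 (log2 ratio 3.18) and SAPK6 (1.65) were higher, the latter not beyond 4-fold, and SAPK2, SAPK8, SAPK9 and SAPK10 were within the range at -0.34, 0.01, 0.31 and -0.34. The model assigned to SAPK9 spans 3849 bases, against 2846 for SAPK9 in the name table.

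Of 7 genes for ABRE-related transcription factors, 5 were higher and 0 lower, with a median log2 ratio of 1.99. BZIP23 was at 54.69 (control) and 216.9 CPM (salinity), and BZIP72 and BZIP12 had log2 ratios of 2.11 and 1.43. VP1, a seed regulator that acts with bZIP factors on ABA-responsive promoters, rested on 18 control and 52 salinity counts (log2 ratio 3.35, interval 2.04 to 4.78). ABI5 rested on 26 and 40 counts, and its call was lost with total-count scaling, which leaves 4 of 7. With an interval beyond 4-fold, 1 of 7 remained, namely VP1, against 792 of the 26638 gene models measured. TRAB1, a bZIP factor that binds ABA-responsive elements, was within the range at 0.99 (interval 0.56 to 1.39), as was BZIP46 at -0.32 (interval -0.98 to 0.27). The 4 listed DREB genes, whose products bind the dehydration-responsive element of cold- and drought-induced genes, were all within the range. DREB1A, DREB1B and DREB1C were at -0.59, -0.19 and -0.44, and DREB2A was at 0.94 (interval 0.61 to 1.26). The model assigned to DREB2A spans 4822 bases, against 2044 for DREB2A in the name table.

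**Figure D5:**
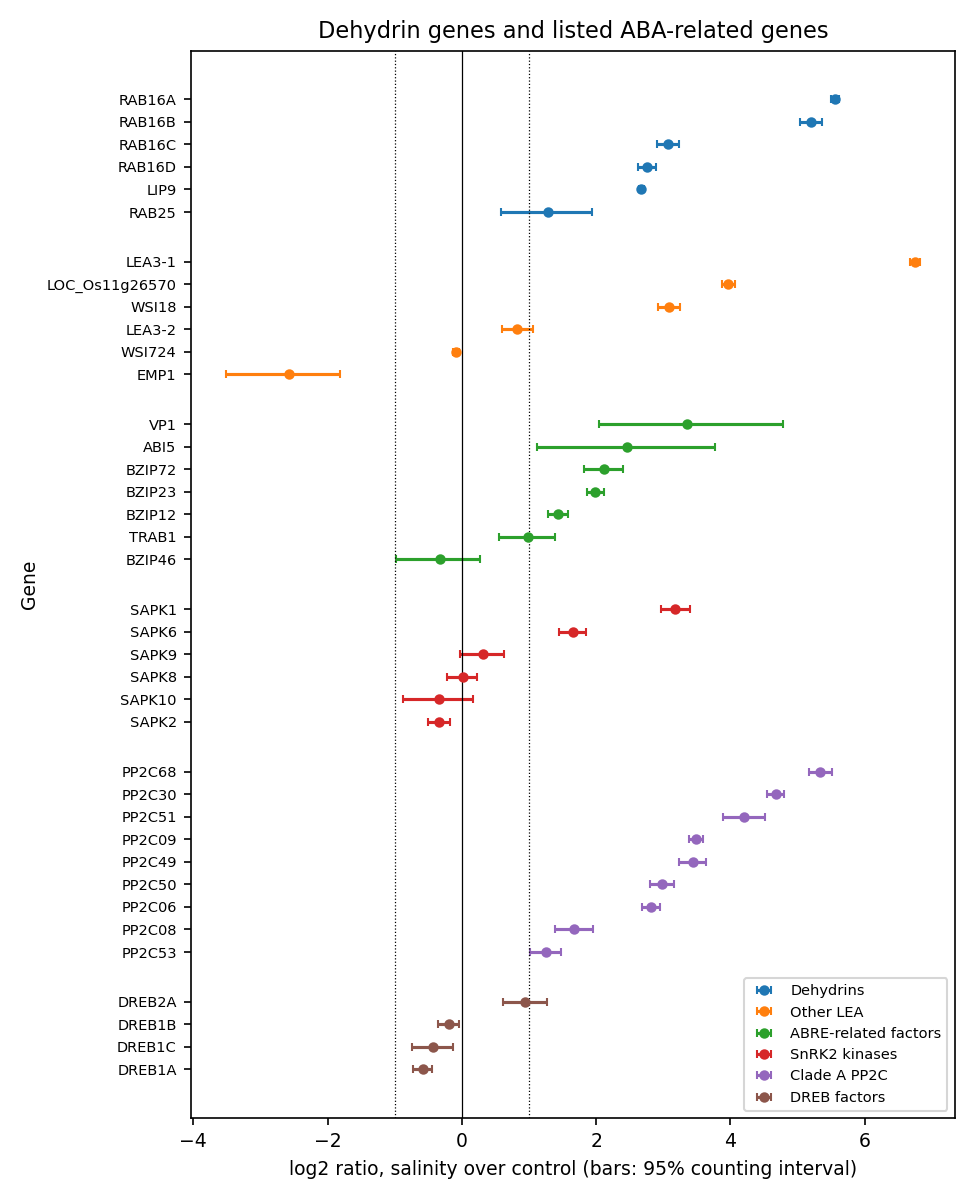
Log2 ratio of the salinity over the control library, with 95% counting intervals on the read-pair scale, for the dehydrin genes and the listed LEA, transcription factor, kinase and phosphatase genes, with dotted lines at 2-fold. The 9 clade A PP2C genes span 1.25 to 5.34. The 5 called dehydrin genes span 2.67 to 5.56, with the uncalled RAB25 model at 1.28. The 4 DREB genes lie between -0.59 and 0.94.

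Dehydrins are also abundant in seeds, so markers of seed tissue are given beside these values. The 6 listed seed markers summed to 31.64 (control) and 9.88 CPM (salinity), where the glutelin gene GLUA1 was at 0 counts (19 in the control). EMP1 was the 1 marker called lower. The oleosin genes OLE18 and OLE16, with 190 and 76 control and 24 and 4 salinity counts before scaling, were within the range. After scaling, OLE18 stood at 3.836 (control) and 1.744 CPM (salinity), and OLE16 at 1.534 and 0.2906 CPM. On the log2 scale their intervals were wide, from -2.62 up to 0.04 for OLE18 and from -7.74 up to 0.16 for OLE16. Also within the range were GLUA1, whose interval reached up to 1.77, and GLUA2, at 2.988 (control) and 2.034 CPM (salinity). The 1 marker called higher, the globulin gene REG2, had 28 salinity counts against 4 in the control, which is under the floor of 3 pairs. Without EMP1, which gives 22.81 CPM of the control sum and is also among the LEA genes above, the other 5 summed to 8.823 and 6.102 CPM. OLE16 and REG2 are likewise named from the hand-written list only. The root silicon transporter genes LSI1 and LSI2 were within the range at 0.48 and -0.64, and the leaf genes CAB2R and CAB1R at -0.0003 and 0.77. The third leaf gene, RBCS2, just missed the size rule (log2 ratio 1.01, interval 0.9994 to 1.027). It counted as higher with DESeq2 factors, with the control thinned, from the counts as deposited, with at least 50 counts and by its point estimate. The 3 leaf genes summed to 23350 (control) and 36260 CPM (salinity). The part that the share of leaf, root and grain tissue has in the dehydrin values was not tested.

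The gene models nearest to RAB16A in log2 ratio and mean log2 CPM, over the 2 libraries and outside the 6 genes, were LOC_Os07g10840, LEA3-1 and LOC_Os03g04770. Their distances on that log2 plane were 1.021, 1.216 and 1.339. LOC_Os07g10840 was at 245.7 (control) and 9235 CPM (salinity), a log2 ratio of 5.23. LOC_Os03g04770 was at 99.23 and 2158 CPM, a log2 ratio of 4.44. With 2 libraries this likeness says only that level and ratio were close.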

How the data were processed

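Poly(A)-enriched libraries were made from total RNA (NEBNext Ultra II kit, per the labels' protocols). FastQC, MultiQC, STAR, featureCounts and DESeq2 are named in the submitters' processing notes. Not given in the sources used here are versions, genome build, annotation and counting options (strand, shared reads). The authors deposited raw counts for each gene model together with exon positions and exon length. Coordinates are those of that table.

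Libraries were scaled with TMM factors (edgeR 4.0.16, R 4.3.3). Log2 ratios of scaled counts used a prior count of 0.5 per library, and their 95% intervals are exact conditional binomial intervals on the read-pair scale. With 1 library per group no test was made. Reads amplified by PCR and lacking molecular identifiers can repeat a molecule, hence every interval and floor covers counting error only. The floor of 3 read pairs is 0.1211 (control) or 0.8718 CPM (salinity). CPM per kilobase divides by the deposited exon length. Scaling with DESeq2 1.42.0 was an alternative. The procedure was tested on simulated data drawn as whole read pairs. Because that simulation assumes the read-pair scale and has no variation between replicates, it cannot check either. Remaining steps ran in Python 3.11.15 (scipy 1.17.1, pandas 2.3.3, numpy 2.4.6, matplotlib 3.10.9).

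The members, the 9 lists and the alternatives were chosen with earlier results of these data known. The 48 listed loci were compared by name with RefSeq genes (assembly ASM3414082v1), requiring the same chromosome, a start within 10% of its length and a span within 25%. For 36 all held, 3 (RAB25, SAPK9, DREB2A) differed in span and 9 names were not found. Named genes are the members, the listed genes, the RAB16 neighbours (5 models on each side) and the 3 models nearest to RAB16A with at least 100 counts. A planned comparison of member sequences was not run.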

Additional observations from a re-analysis of the deposited data

How the results depend on the processing

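Under 11 alternatives, the 5 called dehydrin genes and both summed levels stayed higher wherever they were recomputed. Without the RAB25 model 5 of 5 genes were called, and a point estimate without an interval called that model too (1.28), for 6 of 6. Calls are made without the prior count, and under the other 8 alternatives 5 of 6 genes were called. Log2 ratios ran from 5.31 to 5.61 for RAB16A, from 4.94 to 5.26 for RAB16B, from 2.81 to 3.13 for RAB16C, from 2.50 to 2.80 for RAB16D, from 2.42 to 2.72 for LIP9 and from 1.03 to 1.34 for the RAB25 model. The summed ratio ran from 4.83 to 5.13 for the RAB16 genes and from 3.67 to 3.97 for all 6. The low end of each range came with total counts, which shifted the all-gene median by -0.25, so ratios relative to that median, such as 5.64 for RAB16A, stay as they are. Of all gene models, 2124 were called higher and 1376 lower. An interval beyond 4-fold left 792 and 398, and a point estimate gave 4322 and 5556, by construction. The counts as deposited gave 2755 lower because their intervals are narrower, and total counts gave 2127 lower, where lower genes made up 56.48% of calls against 39.31% with TMM. No paired analysis was possible because each group has 1 library, and for the same reason no replicate could be left out. The sums without the RAB25 model, without EMP1 and over the pairs of RAB16 genes were chosen after seeing the data. The salinity library, at 3.758 read pairs in units of 1e6, limits the precision for low genes such as the RAB25 model, with 26 pairs there.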
